A study of Rattus norvegicus with 6 samples.

Results

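The genes described here are the cell cycle and DNA replication genes in a table of RNA recovered by pull-down from GH4C1, a rat pituitary cell line that makes growth hormone and prolactin. They were selected by a rule on gene names: cyclins A, B, D and E, the cyclin-dependent kinases Cdk1 to Cdk7, the Cdkn genes, the Cdc, Mcm, Orc, Gins, Rfc, Pold and Pole genes, Pcna, the Plk and Aurk kinases, and the Bub, Cenp and E2f genes. This gave 104 of the 32883 genes of the table. All cells were wild type and were treated with psoralen, which crosslinks base-paired RNA strands, and Neat1, a nuclear long noncoding RNA, is the RNA whose direct partners the study sought. RNA was retrieved with oligo pool A or oligo pool B, with 3 libraries for each. The sequences of either pool, and whether a pool served as a control, are not given in the sources used here, and input RNA was not analysed here. The labels do not say whether libraries came from separate cultures, so a p-value measures the spread between these libraries, which may be technical. The counts measure RNA recovered by a pool from a bulk culture of 1 cell line. Without input RNA, recovery by a pool and the level of an RNA in the cells cannot be told apart. Nor can fewer cells holding an RNA and less of it per cell.

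A dividing cell copies its genome once and then segregates the copies. Cyclins switch on cyclin-dependent kinases, E2F transcription factors raise the genes for DNA synthesis, and the origin recognition complex, Cdc6 and the MCM helicase license the sites where copying starts. Cdc45 and the GINS complex turn the MCM ring into a moving helicase, polymerases δ and ε copy the strands behind it, and PCNA, loaded by replication factor C (RFC), holds them on DNA. In mitosis the Plk and Aurora kinases, the centromere proteins and the Bub checkpoint proteins see that each daughter cell receives a full set of chromosomes.

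Promoters of such genes are known to carry E2F sites, and 4 that hold one of the words below are shown because their transcripts went in opposite directions between the pools, Mcm2 and Mcm7 being higher with pool A and Mcm6 and Gins3 with pool B. The sequences are the 250 bases before the gene start, from RefSeq on GRCr8, 5′ to 3′ on the gene's strand. Capitals mark the E2F words searched on both strands, which were TTTCCCGC, TTTCGCGC, TTTGCCGC and TTTGGCGC.
Mcm2, chr4:122918095-122918344 (- strand): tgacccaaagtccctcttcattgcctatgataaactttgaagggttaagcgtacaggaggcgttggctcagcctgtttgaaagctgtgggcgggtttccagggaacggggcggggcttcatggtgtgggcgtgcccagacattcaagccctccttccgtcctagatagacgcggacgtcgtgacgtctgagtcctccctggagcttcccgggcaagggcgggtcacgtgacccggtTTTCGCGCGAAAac
Mcm7, chr12:22163179-22163428 (- strand): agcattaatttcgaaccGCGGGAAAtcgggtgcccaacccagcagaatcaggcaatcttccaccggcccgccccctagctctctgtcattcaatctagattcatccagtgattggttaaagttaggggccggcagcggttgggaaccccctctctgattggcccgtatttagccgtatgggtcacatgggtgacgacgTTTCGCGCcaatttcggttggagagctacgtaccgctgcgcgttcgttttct
Mcm6, chr13:42404353-42404602 (- strand): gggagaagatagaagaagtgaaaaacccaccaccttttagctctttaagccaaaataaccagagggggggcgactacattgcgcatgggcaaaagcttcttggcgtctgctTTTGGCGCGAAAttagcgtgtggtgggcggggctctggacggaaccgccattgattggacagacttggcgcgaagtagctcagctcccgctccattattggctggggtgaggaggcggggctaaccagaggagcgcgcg
Gins3, chr19:9434680-9434929 (- strand): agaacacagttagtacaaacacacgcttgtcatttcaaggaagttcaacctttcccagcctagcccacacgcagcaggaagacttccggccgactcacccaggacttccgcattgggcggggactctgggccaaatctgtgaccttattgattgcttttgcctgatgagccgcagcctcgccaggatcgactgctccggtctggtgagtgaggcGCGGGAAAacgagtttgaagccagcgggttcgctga

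In the Mcm2 and Mcm6 windows the capitals cover 2 words that overlap, one on each strand. A single promoter in this RefSeq table could be matched by symbol for 85 of the 104 genes, and 13 of these (15.3%) held an E2F word, against 1.73% of all 33469 promoters. By pool, 3 of 19 promoters of genes higher with pool A held one, 3 of 15 of those higher with pool B, and 6 of 46 of those not past the threshold. The CCAAT word, on either strand, was in 47.1% of these promoters and in 34% of all promoters. It was in 12 of 19 promoters of genes higher with pool A (63.2%), in 9 of 15 of those higher with pool B (60%) and in 16 of 46 of those not past the threshold (34.8%). A match of letters is a description of the window and not a measured site, and the pull-down did not measure promoters.

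Total counts ranged from 1826390 to 3685899 per library. Values are given as CPM, read counts scaled by library size, here with edgeR's TMM factors, and a count of 0 allows up to 3 counts, or 0.876 to 1.55 CPM. Such floors cover counting error only. The line's own markers were present, with between 342 and 634 counts of Gh1 and 398 and 666 of Pou1f1, neither past the threshold between pools, while Ghrhr and Drd2 were at 0 in every library. Of the markers of other cell types, Fshb, Tshb and Col3a1 were at 0 in every library, Pomc, S100b, Col1a1, Cdh5, Ptprc and Gnrhr had at most 18 counts, and Sox2, Lhb, Cd68 and Tbx19 were detected in every library. Of 13 such markers, 4 were detected in every library, 3 were at 0 in all, and their summed level was 76.5 to 94.2 CPM with pool A and 80.6 to 90.6 CPM with pool B. Single markers differed between pools past the same threshold as the genes below. Prl had 1920 to 2578 counts with pool A and 909 to 1326 with pool B, and Trhr, the receptor for thyrotropin-releasing hormone, 344 to 570 and 130 to 288. Sox2 had 115 to 165 counts with pool A and 39 to 78 with pool B, Lhb 23 to 51 and 73 to 120, and Chgb, a secretory granule protein, 8624 to 13469 and 60077 to 91655. The part of these markers in the results below was not tested.

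The cell cycle genes did not move as a block between the pools. Of the 104, 96 passed edgeR's filter on low counts, which asked for 3.59 CPM, taken on total counts without TMM factors, in 3 libraries, and were tested. Of these, 91 were above that level in every library, and Cdkn3 and Ccne1 were above it in pool B libraries only. With edgeR's quasi-likelihood test and a threshold of 0.05 on the p adjusted over all 11582 genes tested, 19 favoured pool A (were higher with it), 23 favoured pool B and 54 did not pass. That is 43.8% called, against 40.6% of all genes tested, of which 18.6% favoured pool A and 22% favoured pool B. Calls of at least 2-fold numbered 9 in favour of pool A and 15 in favour of pool B, which is 25% of those tested against 25.4% of all genes. Calls of at least 4-fold numbered 4 and 5 of the 96 tested, against a background of 7.82% of all genes. The first 2 shares lay close to the background, and the few 4-fold calls were not compared with it. Cdkn3, which passed the filter through pool B only, is among the 23, the 15 and the 5. Without it, 19 of 95 tested members favoured pool A and 22 favoured pool B, which is 43.2% called. CPM ranges of the pools did not overlap for 51% of the members tested and for 50% of all genes. Differences are given as log2 ratios, pool A over pool B, with the SE of the fitted log2 fold change. The median log2 ratio was -0.14, against 0.02 for all genes. It moved with single libraries, being -0.023, -0.066 and -0.22 without pool B replicates 3, 2 and 1.

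The scaling moved the balance between directions, for all genes as for the members. With total counts in place of TMM factors, 12 members favoured pool A and 26 favoured pool B, and genes higher with pool A made up 31.6% of the members called in place of 45.2%. Over all genes called the same share went from 45.8% to 37.2%. With DESeq2 size factors it was 48.7% for members and 46.8% for all genes, and with upper-quartile factors 48.7% and 52.8%. The same change moved the median of all genes to -0.12, and upper-quartile factors moved it to 0.12. The members' median minus that of all genes, which a scaling hardly touches since it shifts all genes alike, was -0.16. It was -0.25, -0.08 and -0.05 without pool B replicates 1, 2 and 3, and between -0.14 and -0.11 without a pool A library. Calls followed depth, with 29 of 46 members with at least 100 counts on average past the threshold (63%, against 61.7% of all such genes) and 13 of 50 with fewer (26%, against 26.5%).

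**Figure D1:**
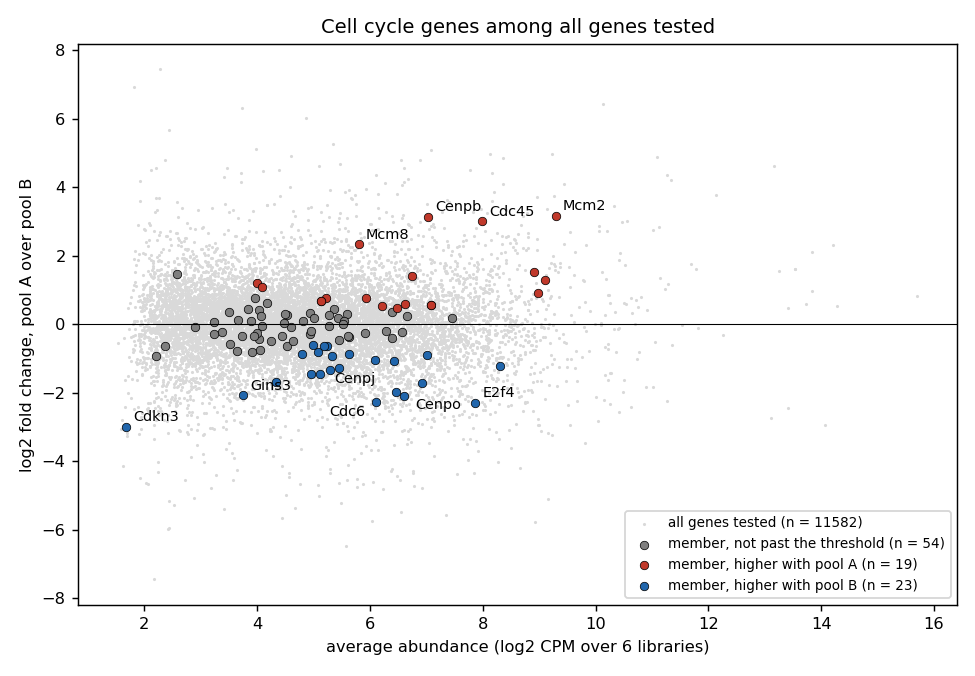
Log2 fold change (pool A over pool B) against average abundance in log2 CPM, 1 point a gene. Grey dots are all 11582 genes tested, and larger points are the 96 cell cycle genes tested, 19 of them higher with pool A, 23 higher with pool B and 54 not past the threshold. The members spread on both sides of 0, from -2.29 for E2f4 to 3.17 for Mcm2, with Cdkn3, which passed the filter through pool B only, at -2.99.

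Within this spread, each role held calls in both directions, apart from the cyclins, where none was higher with pool A, the Cdc25 phosphatases, where none was called, and the CDK inhibitors, where Cdkn3 was the only call. The genes are described below in the order of their roles.

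**Figure D2:**
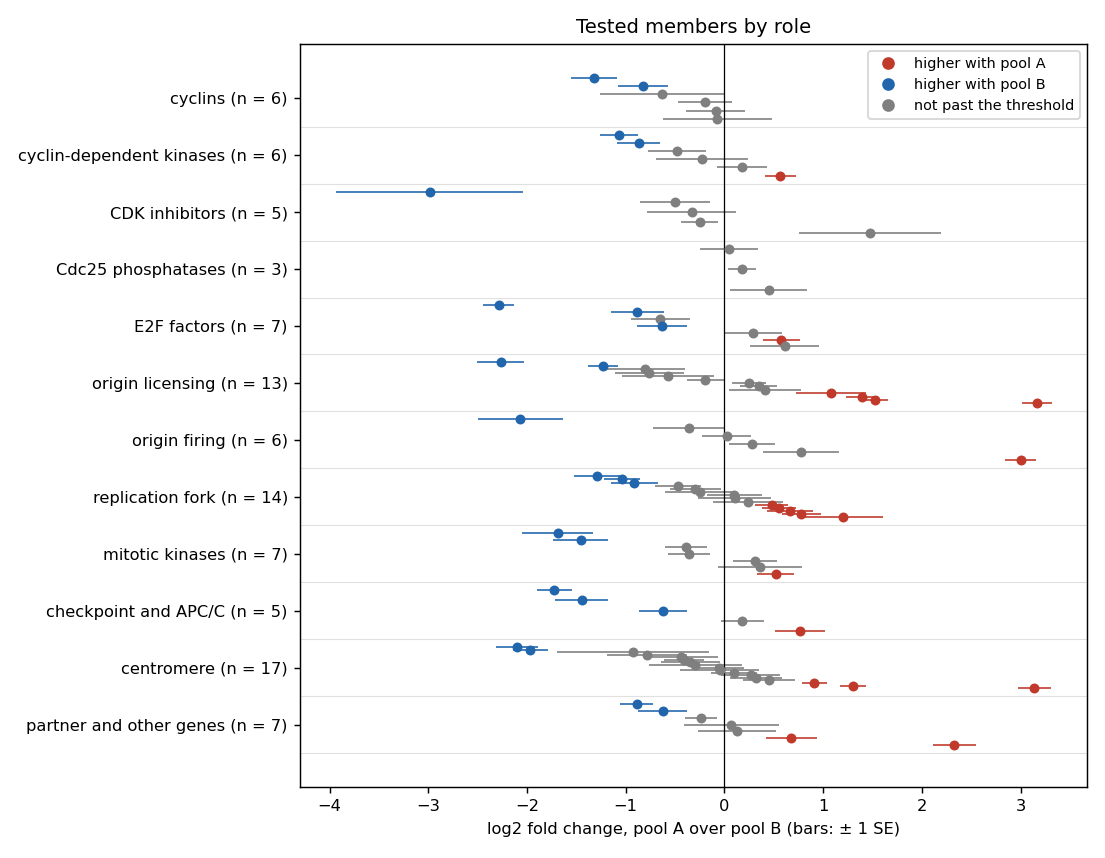
Log2 fold change (pool A over pool B) of the 96 tested members, grouped by role, with bars of 1 SE on either side. Red points passed the threshold in favour of pool A and blue points in favour of pool B. Origin licensing held both Mcm2 at 3.17 and Cdc6 at -2.27, and the centromere group held Cenpb at 3.14 and Cenpo at -2.10.

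Among the cyclins, Ccne2 and Ccna2 were higher with pool B, and the other 4 tested did not pass the threshold, which is 33.3% called against 40.6% of all genes. Ccne2, a partner of Cdk2 at the start of DNA synthesis, had 20.1, 27.4 and 19.3 CPM with pool A and 53.7, 51.3 and 60.9 CPM with pool B. The pools did not overlap, and the log2 ratio was -1.32 ± 0.24 (SE, edgeR adjusted p = 4.45e-05). Ccna2, which acts in DNA synthesis and the entry to mitosis, had 23.4, 30.1 and 18.7 CPM with pool A and 39.0, 50.3 and 38.2 CPM with pool B. Its log2 ratio was -0.82 ± 0.25 (SE, edgeR adjusted p = 0.0104), and the call was lost without pool A replicate 3 (edgeR adjusted p = 0.0628) or without pool B replicate 2 (0.0549). Ccne1, Ccnd3, Ccnb1 and Ccna1 had log2 ratios between -0.63 and -0.07. Of the D-type cyclins, which respond to growth signals, Ccnd3 had between 47 and 120 counts in every library. Ccnd2 was at 0 in all 6 libraries, as was Ccnb3, and Ccnd1 had 1 count in pool B replicate 2 and 0 elsewhere, so no difference could be tested for these.

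Of 6 cyclin-dependent kinase genes tested, 1 favoured pool A and 2 favoured pool B, which is 50% called against 40.6% of all genes. Cdk4 and Cdk6, the kinases of the D-type cyclins, differed in opposite directions. Cdk4 had 163, 153 and 165 CPM with pool A and 126, 103 and 95.4 CPM with pool B, a log2 ratio of 0.57 ± 0.15 (SE, edgeR adjusted p = 0.00384). Cdk6 had 47.3, 65.4 and 53.4 CPM with pool A and 113, 146 and 88.4 CPM with pool B, a log2 ratio of -1.06 ± 0.19 (SE, edgeR adjusted p = 5.98e-05). In both cases every library of one pool lay above every library of the other. Cdk5, known mainly for its roles in neurons, was higher with pool B by a log2 ratio of -0.87 ± 0.22 (SE, edgeR adjusted p = 0.00188). Cdk1 and Cdk2, the kinases of mitosis and of DNA synthesis, did not pass, at 0.18 ± 0.25 and -0.48 ± 0.29 (SE). Cdk7, which activates other cyclin-dependent kinases, did not pass either, at -0.23 ± 0.46 (SE).

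The CDK inhibitors gave a single call among 5 tested, on few counts (20% called, against 40.6% of all genes). Cdkn3, a phosphatase that acts on cyclin-dependent kinases, had 5, 0 and 0 counts with pool A and 16, 8 and 12 counts with pool B. The log2 ratio was -2.99 ± 0.95 (SE, edgeR adjusted p = 0.0125). Cdkn3 passed the filter only through pool B, where it is high, which favours a difference in its test. It does not fix one, since Ccne1 passed in the same way and was not called (-0.63, edgeR adjusted p = 0.455). The Cdkn3 log2 ratio was -6.62 without pool A replicate 1, which leaves pool A at 0 counts, so this size depends on the fit. Its call was lost without pool A replicate 2 (edgeR adjusted p = 0.0903), pool A replicate 3 (0.0791) or pool B replicate 1 (0.0519). Cdkn2a, which encodes an inhibitor of Cdk4 and Cdk6, had 23, 15 and 30 counts with pool A and 5, 13 and 1 with pool B. Its log2 ratio of 1.48 ± 0.72 (SE) did not pass (edgeR adjusted p = 0.106), but passed without pool B replicate 2 (2.83, adjusted p = 0.0129) and with limma-voom (2.20, adjusted p = 0.0353), and was 0.93 without pool B replicate 3. Cdkn2b, an inhibitor of the same kinases, had 48.7, 57.0 and 57.4 CPM with pool A and 64.5, 64.2 and 65.3 CPM with pool B. These ranges did not overlap, yet the log2 ratio of -0.25 ± 0.19 (SE) did not pass (edgeR adjusted p = 0.308). Cdkn1a and Cdkn2c did not pass, and Cdkn1b and Cdkn1c were at 0 in all libraries. Hprt1, a gene expressed in most cells, was also listed at 0 in all libraries, and it was looked up after these zeros were seen.

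None of the 3 Cdc25 phosphatases, which activate cyclin-dependent kinases by removing inhibitory phosphates, was called. Cdc25a had 661, 429 and 551 counts with pool A and 519, 343 and 389 with pool B. Its log2 ratio was 0.18 ± 0.14 (SE, edgeR adjusted p = 0.351), and Cdc25b and Cdc25c had 0.04 ± 0.30 and 0.45 ± 0.39 (SE).

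Of 7 E2F genes tested, 1 favoured pool A and 3 favoured pool B, which is 57.1% called against 40.6% of all genes. E2f4, which represses cell cycle genes in resting cells, had 89.0, 85.3 and 64.0 CPM with pool A and 336, 398 and 427 CPM with pool B. Each pool B library held at least 336 CPM and each pool A library at most 89.0. The log2 ratio was -2.29 ± 0.16 (SE), a 4.88-fold difference, with an edgeR adjusted p of 2.07e-12. The activator E2f3 was higher with pool B at -0.88 ± 0.27 (SE, edgeR adjusted p = 0.00983), and the adjusted p rose to 0.0552 without pool A replicate 2. E2f2, another activator, passed barely, at -0.64 ± 0.25 (SE, edgeR adjusted p = 0.0477), and lost the call in 9 of 14 alternatives, among them those without pool A replicates 1 and 2 (adjusted p = 0.0873 and 0.213) and without pool B replicates 2 and 3 (0.159 and 0.206). E2f7, an atypical repressor, was higher with pool A at 0.58 ± 0.19 (SE, edgeR adjusted p = 0.0145), a call lost with total counts (0.072), without pool A replicate 2 (0.0659) or without pool B replicate 1 (0.113). E2f5, E2f6 and E2f8 had log2 ratios of 0.61, 0.29 and -0.65 and did not pass, although E2f8 did with total counts (edgeR adjusted p = 0.0424).

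Of 13 origin licensing genes tested, 4 favoured pool A and 2 favoured pool B, which is 46.2% called against 40.6% of all genes. The MCM helicase is a ring of 6 proteins, Mcm2 to Mcm7, that is loaded at origins, and its transcripts did not travel together. Mcm2 had 1172, 1190 and 1027 CPM with pool A and 105, 140.4 and 134 CPM with pool B. No library of one pool came near those of the other. The log2 ratio was 3.17 ± 0.15 (SE), an 8.97-fold difference, with an edgeR adjusted p of 1.42e-15. Mcm7 had 734, 677 and 719 CPM with pool A and 219, 239.9 and 280.0 CPM with pool B, and Mcm3 had 144, 153 and 163 CPM with pool A and 51.1, 64.8 and 59.8 CPM with pool B. Their log2 ratios were 1.53 ± 0.13 and 1.39 ± 0.16 (SE), with edgeR adjusted p-values of 3.07e-10 and 7.24e-08. Mcm6 went the other way, with 144.5, 191 and 229 CPM with pool A and 403, 435 and 484 CPM with pool B. Its log2 ratio was -1.23 ± 0.15 (SE, edgeR adjusted p = 1.69e-07). Mcm4 and Mcm5 did not pass, at -0.19 ± 0.19 and 0.25 ± 0.17 (SE). Of the 5 ring genes with a matched promoter, Mcm2, Mcm7, Mcm6 and Mcm5 held E2F words, with 3 words in Mcm5, which was not called, and Mcm3, which favoured pool A, held none.

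Cdc6 and the origin recognition complex load the MCM ring. Cdc6 had 18.4, 19.5 and 32.5 CPM with pool A and 81.5, 119 and 141 CPM with pool B. Every pool B library stood well above the highest pool A library, with a log2 ratio of -2.27 ± 0.24 (SE, edgeR adjusted p = 7.43e-09). Among Orc1 to Orc6, Orc6 was the only call. It had 19.9, 29.6 and 17.5 CPM with pool A and 9.496, 10.88 and 11.01 CPM with pool B, a log2 ratio of 1.08 ± 0.35 (SE, edgeR adjusted p = 0.0154), and the adjusted p was 0.108 without pool A replicate 2. Orc1, Orc3 and Orc4 had log2 ratios of -0.80, -0.76 and -0.57, and Orc2 and Orc5 had 0.35 and 0.41. Standard errors for these 5 genes were between 0.19 and 0.47, and Orc1 passed without pool A replicate 3 (-1.15, edgeR adjusted p = 0.047).

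Genes that fire licensed origins gave 1 call in each direction among 6 tested, which is 33.3% called against 40.6% of all genes. Cdc45, which joins the MCM ring to form the active helicase, had 394, 517 and 439 CPM with pool A and 50.4, 53.9 and 64.2 CPM with pool B. Every pool A library stood far above every pool B library. The log2 ratio was 2.9985 ± 0.16 (SE), a 7.99-fold difference, with an edgeR adjusted p of 1.19e-14. Gins3, a subunit of the GINS complex that binds Cdc45, had 22, 14 and 8 counts with pool A and 69, 46 and 46 with pool B. Its log2 ratio was -2.07 ± 0.43 (SE, edgeR adjusted p = 0.000317). Of the other subunits, Gins2 and Gins4 did not pass, at 0.02 ± 0.24 and 0.77 ± 0.39 (SE), and Gins1, with 10, 14 and 12 counts against 2, 4 and 8, was not tested. The kinase gene Cdc7, whose product triggers firing, and Mcm10, which helps the helicase to open DNA, had -0.36 ± 0.37 and 0.28 ± 0.23 (SE).

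At the replication fork, 5 of 14 genes favoured pool A and 3 favoured pool B, which is 57.1% called against 40.6% of all genes. The catalytic subunits of both polymerases were on the pool A side. Pold1, of polymerase δ, had 77.9, 68.1 and 82.1 CPM with pool A and 45.5, 50.3 and 37.8 CPM with pool B, a log2 ratio of 0.78 ± 0.19 (SE, edgeR adjusted p = 0.00184). Pole, of polymerase ε, had 128, 174 and 178 CPM with pool A and 83.5, 113 and 130.3 CPM with pool B. The pools overlapped here. Its log2 ratio of 0.55 ± 0.17 (SE) came with edgeR adjusted p = 0.0117, and the call was lost with total counts (0.07) and without pool B replicate 1 (0.0911). The 6 accessory subunits, Pold2 to Pold4 and Pole2 to Pole4, had log2 ratios from -0.47 to 0.24 and none passed, although Pold2 did with total counts (-0.61, adjusted p = 0.0373) and without pool B replicate 1 (-0.62, adjusted p = 0.0495).

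The 5 subunits of the clamp loader RFC were called, 3 for pool A and 2 for pool B, where 40.6% of all genes were called. Rfc1, Rfc3 and Rfc5 had at least 100 counts on average, and 61.7% of all such genes were called. Rfc2 and Rfc4 had fewer, and 26.5% of all genes with under 100 counts were called. The 3 calls for pool A, Rfc1, Rfc2 and Rfc4, were lost under some alternatives given below. Rfc5 had 28.6, 22.1 and 24.0 CPM with pool A and 49.5, 79.8 and 55.4 CPM with pool B, a log2 ratio of -1.29 ± 0.24 (SE, edgeR adjusted p = 6.72e-05). Rfc3 had 42.9, 40.2 and 49.0 CPM with pool A and 81.5, 94.3 and 96.5 CPM with pool B, a log2 ratio of -1.04 ± 0.18 (SE, edgeR adjusted p = 4.46e-05). Both pairs of ranges were apart. Rfc4 had 97, 37 and 57 counts with pool A and 37, 7 and 29 with pool B, and a log2 ratio of 1.21 ± 0.41 (SE). Its edgeR adjusted p of 0.0184 became 0.147 when pool A replicate 1 was left out, and 0.0798 when pool B replicate 2 was. Rfc1, the large subunit, and Rfc2 were higher with pool A by 0.48 ± 0.16 and 0.66 ± 0.23 (SE), with edgeR adjusted p-values of 0.0214 and 0.0242. With total counts these were 0.128 and 0.0853. Rfc1 was lost without pool B replicate 2 (0.0694) or 3 (0.0714), and Rfc2 without pool A replicate 3 (0.0745) or without pool B replicate 2 (0.0719) or 3 (0.0561). Pcna, the clamp that RFC loads, had 32.1, 31.8 and 19.0 CPM with pool A and 53.7, 53.4 and 48.8 CPM with pool B. It was higher with pool B in all libraries, at -0.91 ± 0.24 (SE, edgeR adjusted p = 0.00294).

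**Figure D3:**
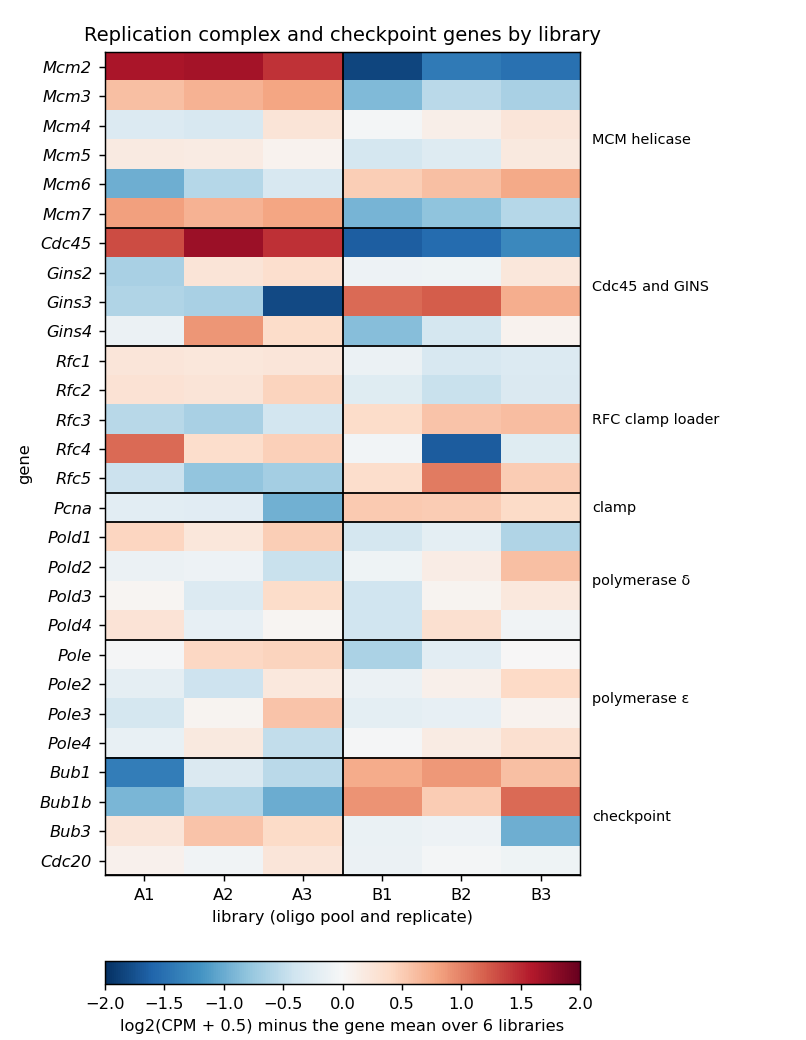
Level of each gene in each library as log2(CPM + 0.5) minus the gene's mean over 6 libraries, for subunits of replication complexes and for checkpoint genes, with libraries of pool A left of the line and of pool B right of it. Mcm2 and Cdc45 are high in all pool A libraries, and Mcm6, Gins3 and Bub1b in all pool B libraries.

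Of 7 mitotic kinase genes, Aurkc and Plk2 were higher with pool B and Aurka with pool A, which is 42.9% called against 40.6% of all genes. Aurkc, an Aurora kinase best known from germ cells, had 15, 28 and 37 counts with pool A and 78, 60 and 91 with pool B, a log2 ratio of -1.69 ± 0.36 (SE, edgeR adjusted p = 0.000384). Plk2, a polo-like kinase that also responds to stress and to neuronal activity, had 11.97, 16.8 and 20.3 CPM with pool A and 41.3, 58.0 and 35.96 CPM with pool B. Neither gene overlapped between pools, and the log2 ratio of Plk2 was -1.46 ± 0.28 (SE, edgeR adjusted p = 0.000108). Aurka, which builds the spindle poles, had 87.3, 81.3 and 89.6 CPM with pool A and 47.5, 77.2 and 57.3 CPM with pool B. Its log2 ratio of 0.52 ± 0.19 (SE) came with edgeR adjusted p = 0.031, and the call was lost with total counts (0.14), without pool A replicates 1 (0.068) and 3 (0.0623), and without pool B replicates 1 (0.167) and 3 (0.101). Aurkb, the Aurora kinase of the centromere, and Plk1, the main mitotic polo-like kinase, did not pass, at -0.36 ± 0.22 and -0.39 ± 0.21 (SE). Plk3 and Plk4 had 0.36 ± 0.43 and 0.31 ± 0.23 (SE).

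The spindle checkpoint holds mitosis until chromosomes are attached, and its kinase genes were higher with pool B. Of 5 checkpoint and anaphase-promoting complex genes tested, 1 favoured pool A and 3 favoured pool B, which is 80% called against 40.6% of all genes. Bub1b, which encodes BubR1, had 53.4, 65.9 and 50.6 CPM with pool A and 189, 144.5 and 222 CPM with pool B. Bub1 had 11.1, 24.3 and 20.3 CPM with pool A and 50.1, 54.9 and 45.1 CPM with pool B. In both genes each pool B library was above every pool A library, with log2 ratios of -1.72 ± 0.18 and -1.45 ± 0.27 (SE) and edgeR adjusted p-values of 5.65e-09 and 8.32e-05. Bub3, whose protein binds both kinases, was higher with pool A instead, at 0.77 ± 0.25 (SE, edgeR adjusted p = 0.0169). The Bub3 call was lost with total counts (0.0565), without pool A replicate 2 (0.0657) or without pool B replicate 3 (0.131). Cdc27, a subunit of the anaphase-promoting complex, had -0.62 ± 0.25 (SE, edgeR adjusted p = 0.0443), and passed in 1 of 14 alternatives, being lost in each of the fits without a library (adjusted p from 0.0504 to 0.14). Cdc20, the activator of that complex, did not pass, at 0.18 ± 0.22 (SE).

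Of 17 Cenp genes tested, grouped here by name, 3 were higher with pool A, 2 were higher with pool B and 12 did not pass, which is 29.4% called against 40.6% of all genes. Without Cenpj, a centriole gene, it is 25% of 16. Cenpb, which encodes a protein that binds centromeric repeats, had 236, 218 and 240.6 CPM with pool A and 24.2, 28.5 and 26.4 CPM with pool B. The spread within each pool was small beside the distance between them, and the log2 ratio was 3.14 ± 0.17 (SE), an 8.81-fold difference, with an edgeR adjusted p of 1.87e-14. Cdc25b, in the next row of the table, had a log2 ratio of 0.04. The large kinetochore proteins CENP-F and CENP-E share a role in attaching microtubules. Cenpf had 755, 862 and 735 CPM with pool A and 354, 297 and 304 CPM with pool B, and Cenpe had 631, 686 and 666 CPM with pool A and 355, 324 and 376 CPM with pool B. Their log2 ratios were 1.30 ± 0.13 and 0.91 ± 0.13 (SE), with edgeR adjusted p-values of 5.71e-09 and 1.39e-06.

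In favour of pool B, Cenpo, a subunit of the inner kinetochore, had 22.5, 47.7 and 41.5 CPM with pool A and 144.1, 186 and 143.9 CPM with pool B. Cenpj, which controls the length of centrioles in spite of its name, had 30.9, 40.7 and 36.2 CPM with pool A and 136, 131 and 153 CPM with pool B. Neither overlapped between the pools, with log2 ratios of -2.10 ± 0.21 and -1.97 ± 0.18 (SE) and edgeR adjusted p-values of 4.76e-09 and 6.19e-10. Cenpa, the histone variant that marks the centromere, did not pass, at -0.44 ± 0.37 (SE), nor did Cenpc, which binds it, at 0.10 ± 0.23 (SE). The remaining 10 were Cenph, Cenpi, Cenpk, Cenpl, Cenpm, Cenpn, Cenpp, Cenpt, Cenpu and Cenpv, with log2 ratios from -0.93 to 0.45. Among them, Cenpm passed without pool B replicate 2 (0.82, edgeR adjusted p = 0.0171), and Cenpt with total counts (-0.55, adjusted p = 0.0415), without pool A replicate 3 (-0.61, 0.0269) or without pool B replicate 1 (-0.57, 0.0389). Cenpw, with 10, 13 and 5 counts against 0, 0 and 5, was not tested.

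**Figure D4:**
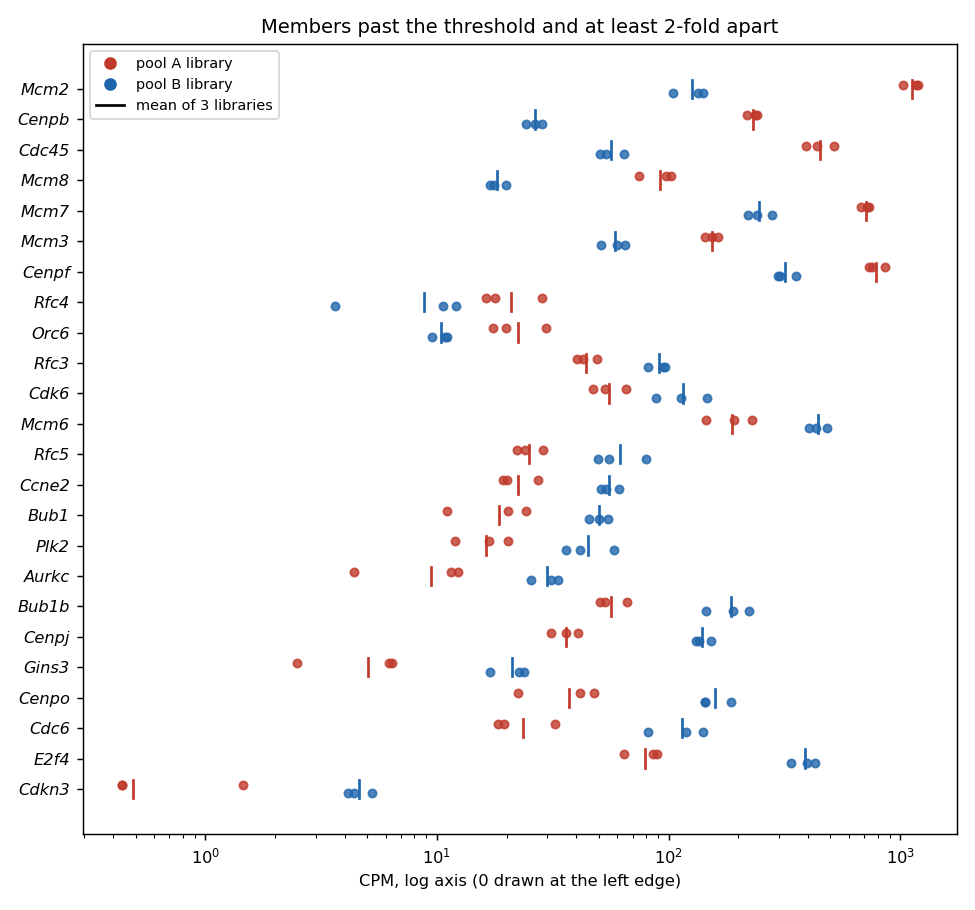
CPM in each library (log axis) of the 24 members past the threshold and at least 2-fold apart, with red points for pool A, blue points for pool B and vertical lines at the means of 3 libraries. For none of the 24 do the libraries of one pool overlap those of the other, which the choice of these genes favours. Ranges were apart for 50% of all genes tested. Cdkn3 passed the filter through pool B only. The 2 Cdkn3 libraries at 0 are drawn at the left edge.

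Names beginning like those of cell cycle genes also brought in 8 genes of other roles. Of the 7 tested, 2 favoured pool A and 2 favoured pool B, which is 57.1% called against 40.6% of all genes. Mcm8, whose protein is related to the MCM ring and acts in homologous recombination, had 74.7, 102.5 and 97.7 CPM with pool A and 17.0, 17.6 and 19.8 CPM with pool B. This 5.03-fold difference, a log2 ratio of 2.33 ± 0.22 (SE), came at edgeR adjusted p = 1.09e-09. Mcm3ap, which encodes an mRNA export protein, had 104.5, 74.3 and 91.7 CPM with pool A and 134, 177 and 193 CPM with pool B, a log2 ratio of -0.89 ± 0.17 (SE, edgeR adjusted p = 0.000103). Poldip2 (0.68, edgeR adjusted p = 0.0395) and Cdkn2aip (-0.63, 0.0462) passed in favour of pool A and pool B. Poldip2 lost the call in 5 of 14 alternatives, and Cdkn2aip in 9. For Poldip2 these were total counts (adjusted p = 0.115), pool A replicates 1 (0.153) and 2 (0.0751) left out, and pool B replicates 1 (0.192) and 3 (0.114) left out. Cdkn2aip kept its call without pool A replicate 2 and lost it without any other library (adjusted p from 0.0546 to 0.196). Poldip3, Mcm9 and Cdkn2aipnl did not pass, and Ccnb1ip1 was not tested. Without such genes, 17 of 89 tested members favoured pool A and 21 favoured pool B, which is 42.7% called against 40.6% of all genes.

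A list of 92 further cell cycle and replication genes in the table, outside the name rule, was divided as well. All 92 were tested, 22 favoured pool A and 26 favoured pool B, which is 52.2% called against 40.6% of all genes, and their median log2 ratio was 0.05. Polymerase α starts each new strand, and its catalytic subunit gene Pola1 had a log2 ratio of 2.63 ± 0.15 (SE), while Lig1, the ligase that joins the fragments, had 2.29 ± 0.15 (SE). Their edgeR adjusted p-values were 8.24e-14 and 1.41e-12. Wee1, an inhibitory kinase of Cdk1, and Tipin, which protects stalled forks, were also higher with pool A, at 2.16 ± 0.39 and 2.05 ± 0.48 (SE), with edgeR adjusted p-values of 6.19e-05 and 0.00106. In favour of pool B, Rpa3, a subunit of the single-strand binding protein, had -2.04 ± 0.32 (SE), Lin9, of a complex that controls cell cycle transcription, had -1.89 ± 0.25 (SE), and Cdc26, of the anaphase-promoting complex, had -1.58 ± 0.37 (SE). Their edgeR adjusted p-values were 6.55e-06, 6.09e-07 and 0.00114.

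The checkpoint gene Mad2l1, whose product restrains Cdc20, was higher with pool B like Bub1 and Bub1b. It had 9.63, 19.5 and 16.5 CPM with pool A and 69.8, 79.8 and 76.3 CPM with pool B, a log2 ratio of -2.33 ± 0.25 (SE, edgeR adjusted p = 1.41e-08). The NDC80 complex, a rod of 4 proteins that grips microtubules, had transcripts on both sides. Spc24 had 482, 514 and 353 CPM with pool A and 64.5, 66.8 and 47.3 CPM with pool B, a log2 ratio of 2.92 ± 0.17 (SE). Ndc80 had 26.3, 29.2 and 53.7 CPM with pool A and 142, 118 and 125 CPM with pool B, a log2 ratio of -1.81 ± 0.22 (SE). Their edgeR adjusted p-values were 9.59e-14 and 9.38e-08. The other two subunits were chosen for mention after values were seen. Nuf2 was higher with pool B at -1.501 ± 0.18 (SE, edgeR adjusted p = 1.25e-07), and Spc25 higher with pool A at 0.79 ± 0.31 (SE, edgeR adjusted p = 0.0449). The Spc25 call was lost with total counts (0.107), with limma-voom (0.0568), with no filter (0.054), without pool A replicates 1 (0.174) and 2 (0.106), and without pool B replicates 2 (0.127) and 3 (0.14). Mki67 and Top2a, common markers of dividing cells chosen in the same way, had log2 ratios of 0.02 ± 0.13 and 0.005 ± 0.13 (SE), which did not pass.

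The precision differed among members. Standard errors of the log2 ratio were between 0.13 and 0.26 for the 46 members with at least 100 counts on average, and between 0.23 and 0.95 for the 50 with fewer. The 54 members that did not pass had a median size of log2 ratio of 0.30 and a median SE of 0.30, so a p that misses the threshold does not show that their levels were alike. Of the 42 called members, 21 of the 24 that were at least 2-fold apart kept the call in each of 14 alternatives of scaling, filter, test and left-out library that could test them, the exceptions being Cdkn3, Rfc4 and Orc6. Of the 18 called at under 2-fold, 6 kept it in all of them.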

How the data were processed

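RNA pulled down with oligo pool A or oligo pool B was measured in 3 libraries each. The deposited table holds whole-number counts per gene and library. STAR and featureCounts are named in the submitters' processing notes, without versions, and the genome build, annotation and strand setting are not given in the sources used here, so reads of overlapping or antisense genes may not be separable. The deposited signal columns, the mean of the counts of each pool, were not used. Libraries were grouped by their labels.

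Counts were filtered with edgeR's filterByExpr, scaled with TMM factors and tested with edgeR's quasi-likelihood test (edgeR 4.0.16, R 4.3.3), pool A over pool B, with Benjamini-Hochberg adjustment over all 11582 genes tested and a threshold of 0.05. CPM are scaled by the same factors. No gene lengths were used, so levels were not compared between genes. A count of 0 allows 3 counts.

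Members and lists were chosen with earlier results of these data known. Named in full are called members whose log2 fold change is at least 1 in size, up to 15 in each direction, the member with the highest mean count in each role, and up to 5 genes in each direction of a list of 93 other cell cycle genes, of which 92 were in the table. Members under this size, and members not past the threshold, are given more briefly. Marker lists held 21 genes, of which 20 were in the table. Promoters are RefSeq's on GRCr8, matched by symbol.

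On simulated counts for 11340 genes, 200 genes were assigned a change. The test recovered 54.7% of 95 changes of 2-fold and 89.9% of 99 changes of 4-fold, and 6% of its calls were false. The simulation changed few genes, evenly up and down, while 40.6% of all genes tested were called in the data. These rates may therefore not hold for the data. Same-numbered libraries of the pools had deviations that correlated at 0.0409, -0.0195 and 0.02, so the numbers were not treated as pairs. Alternatives were other scalings, filters and thresholds, DESeq2 1.42.0, limma-voom (limma 3.58.1), edgeR's glmTreat, a replicate block, each library left out and the members without partner genes.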

Additional observations from a re-analysis of the deposited data

How the results depend on the processing

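No called member changed direction under any alternative, nor did a named pathway gene that was called. The log2 ratios of Mki67 and Top2a, which were not called, ran from -0.12 to 0.12 and from -0.13 to 0.11. The 42 called members kept their call in 572 of 669 refits. Against a 1.5-fold change (glmTreat), 1156 genes favoured pool A and 1521 favoured pool B. The members gave 8 and 16 (25% called, against 23.1% of all genes). The pathway genes gave 13 and 15, which were not compared with the share of all genes. With total counts the members gave 12 and 26 (39.6% called, against 39.9% of all genes), and at an adjusted p under 0.01 they gave 10 and 18 (29.2%, against 30.4%). The median log2 fold change of all genes was 0.03 with DESeq2 size factors and with the DESeq2 Wald test, -0.121 with total counts, 0.118 with upper-quartile factors, 0.065 when unfiltered, and 0.008 to 0.044 with 1 library left out. The members' median was -0.277 with total counts, -0.039 with upper-quartile factors and -0.221 to -0.023 with 1 library left out, and that of the pathway genes was -0.095 with total counts. Apart from glmTreat and the stricter threshold, whose construction asks for more, the cause was not tested. With the replicate block, 19 members favoured pool A and 21 favoured pool B (41.7%, against 39.4% of all genes). Of the 50 tested members with under 100 counts on average, 13 passed (26%, against 26.5% of all such genes).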

Other observations

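The members' summed share of the counts, which depends on transcript lengths as well as levels, was compared between pools. In pool A libraries all 104 members took 0.726% ± 0.043 (SD, n = 3) of all counts. In pool B libraries they took 0.616% ± 0.033 (SD, n = 3). Mcm2, Mcm7, Cdc45, Cenpe and Cenpf, chosen after their values were seen, took 0.352% ± 0.009 (SD, n = 3) and 0.115% ± 0.0042 (SD, n = 3), and the other 99 members 0.374% ± 0.035 (SD, n = 3) and 0.502% ± 0.032 (SD, n = 3). The choice of these 5 favours a lower remaining share with pool A, so the remainder is given as a description.

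The 24 members at least 2-fold apart had 25 tested genes in adjacent rows of the table. Of these, 3 were called in the member's direction, 9 in the opposite one, and 13 were not called. Of all genes tested, 40.6% were called. Next to Mcm8, Trmt6 had a log2 fold change of 3.52 and Crls1 -1.48. Next to E2f4, Elmo3 had -0.92 and Exoc3l1 1.36. Next to Mcm2, Podxl2 had 0.56 and Tpra1 -0.36, the last of which was not called. The microRNA genes known to lie in an Mcm7 intron had few counts, Mir106b having 12, 1 and 8 with pool A and 8, 0 and 4 with pool B.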
